A study of Homo sapiens with 8 samples.

Results

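Remote peaks are stretches of chromatin marked by H3K27ac that lie over 50 kb from every transcription start site (TSS) named beside them. They were taken from the deposited table as the peaks that held no TSS, were under 20 kb wide, and had both the upstream and the downstream TSS at more than 50 kb. The rule uses position and width only. It gave 4778 of 31961 peaks (14.9%), and all 4778 had a score above 0 in at least 2 libraries. The other classes used beside them were 16637 distal peaks (no TSS inside, a TSS within 50 kb), 9096 TSS-holding peaks under 20 kb, and 1450 peaks of 20 kb or more.

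The libraries came from clonal lines of CFPAC1, an established human cell line of pancreatic ductal adenocarcinoma, immunoprecipitated with an H3K27ac antibody (Abcam, ab4729). Clones were isolated by dilution after infection with the lentiCRISPR plasmid, so that control and IRF1-guide clones both carried it. The 4 groups of 2 libraries were IRF1-guide clones 11 and 13, which carried Cas9 and a guide RNA against IRF1, with hIFNb for 2 hours, the same 2 clones untreated, control clones 1 and 4 with hIFNb for 2 hours, and the same control clones untreated. hIFNb is read here as human interferon beta. The labels do not state whether the IRF1 protein is lost, and H3K27ac does not measure it. With 2 clones of each kind, the guide and the clone cannot be told apart. Each clone gave 1 library per treatment, so p-values over libraries measure the spread between these clones.

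H3K27ac is laid down by the acetyltransferases p300 and CBP and is found at active promoters and enhancers. Enhancers can lie far from the genes they act on, within introns of other genes or in gene-poor stretches, and the nearest TSS need not be the target. Interferon beta binds the IFNAR receptor and activates JAK kinases, and the signal reaches genes through interferon-stimulated response elements. IRF1 is itself induced by interferons and binds the same kind of element, while AP-1, made of FOS and JUN proteins, is a common occupant of distal enhancers.

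Few of these regions could be read as sequence. Only 150 remote peaks held a start listed in the RefSeq table used (GRCh38.p14). In total 901 remote peaks (18.9%) had such a start within 50 kb, so the TSS set of the deposited table is not the whole of RefSeq. The windows from 250 bases before to 50 bases after those starts are the parts of remote peaks with letters at hand, 186 windows of 300 bases. The 6 shown were chosen after their values were seen, as examples of peaks that rose, fell or differed between clones. Capitals mark a match to the AP-1 motif TGANTCA or to an interferon-response type motif (GAAA, any 2 bases, GAAA), searched on both strands. Each runs 5′ to 3′ along the stated strand. Peaks that rose with hIFNb held the starts of LOC124902495 (chr10:103659910-103660209, plus strand), of TTLL11 (chr9:121963683-121963982, minus strand) and of LRRK1-AS1 (chr15:101091566-101091865, minus strand). A peak that fell held the start of GRID1-AS2 (chr10:85643815-85644114, plus strand). A start of VAV3 (chr1:107688450-107688749, minus strand) lay in a peak higher in IRF1-guide clones, and that of LOC105369165 (chr2:52934452-52934751, minus strand) in a peak lower in IRF1-guide clones with hIFNb.
LOC124902495: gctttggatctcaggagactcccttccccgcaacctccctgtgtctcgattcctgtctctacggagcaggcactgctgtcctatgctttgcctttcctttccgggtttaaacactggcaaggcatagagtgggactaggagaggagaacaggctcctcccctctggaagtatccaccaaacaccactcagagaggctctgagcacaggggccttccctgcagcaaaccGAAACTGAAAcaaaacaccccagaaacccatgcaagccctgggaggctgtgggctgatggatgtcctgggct
TTLL11: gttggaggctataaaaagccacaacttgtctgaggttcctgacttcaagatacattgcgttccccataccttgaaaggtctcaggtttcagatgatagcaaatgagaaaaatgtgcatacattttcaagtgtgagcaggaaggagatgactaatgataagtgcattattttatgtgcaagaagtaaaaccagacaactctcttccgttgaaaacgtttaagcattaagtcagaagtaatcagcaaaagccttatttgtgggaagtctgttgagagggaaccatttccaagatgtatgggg
LRRK1-AS1: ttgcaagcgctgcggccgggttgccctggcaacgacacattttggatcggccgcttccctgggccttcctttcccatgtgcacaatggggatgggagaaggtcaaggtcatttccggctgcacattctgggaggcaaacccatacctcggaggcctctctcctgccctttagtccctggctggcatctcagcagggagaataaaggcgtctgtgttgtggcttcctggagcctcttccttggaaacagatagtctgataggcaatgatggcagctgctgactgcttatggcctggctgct
GRID1-AS2: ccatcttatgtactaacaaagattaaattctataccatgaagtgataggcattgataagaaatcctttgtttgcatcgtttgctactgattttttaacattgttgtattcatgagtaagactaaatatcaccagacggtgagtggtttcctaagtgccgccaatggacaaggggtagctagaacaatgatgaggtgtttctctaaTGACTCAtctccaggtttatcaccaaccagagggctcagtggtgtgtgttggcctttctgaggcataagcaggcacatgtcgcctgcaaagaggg
VAV3: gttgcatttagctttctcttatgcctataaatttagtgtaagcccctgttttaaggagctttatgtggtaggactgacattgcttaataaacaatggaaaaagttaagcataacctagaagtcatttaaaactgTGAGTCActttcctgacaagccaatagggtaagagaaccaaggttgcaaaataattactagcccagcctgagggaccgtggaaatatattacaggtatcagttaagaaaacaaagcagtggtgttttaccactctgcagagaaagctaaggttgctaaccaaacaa
LOC105369165: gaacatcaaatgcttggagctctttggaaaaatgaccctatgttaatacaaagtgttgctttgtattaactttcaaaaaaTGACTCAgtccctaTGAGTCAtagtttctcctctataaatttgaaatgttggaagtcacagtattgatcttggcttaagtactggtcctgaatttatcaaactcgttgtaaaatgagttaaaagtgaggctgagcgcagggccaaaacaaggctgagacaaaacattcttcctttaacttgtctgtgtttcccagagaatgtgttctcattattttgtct

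The AP-1 letters TGANTCA stood in 33 of the 186 windows in remote peaks (17.7%), against 138 of 1011 windows in distal peaks (13.6%) and 2707 of all 35116 RefSeq start windows (7.71%). The interferon-type motif stood in 13 windows of remote peaks (6.99%), 4.35% of those in distal peaks and 3.57% of all. The forkhead letters TGTTTAC were in 5.91%, 4.25% and 3.42% of the same sets, and the GATA-type letters AGATAAG in 2.69%, 2.77% and 2.68%. The STAT-type letters TTCNNNGAA were in 8.06%, 8.31% and 7.66%, and the HNF1 motif, searched as GTTAAT, any base and ATTAA, was in none of the windows in remote peaks, 0.198% of those in distal peaks and 0.0484% of all. Base composition differed mainly between the remote windows and the other sets. The mean G and C content was 51.5% in remote windows, 57.9% in distal windows and 57.5% in all windows, and its part in the shares was not tested. No window in a remote peak held overlapping matches of different motifs.

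The peak at the LOC124902495 start scored 85 and 61 in IRF1-guide clones and 79 and 70 in control clones with hIFNb, against 26 and 11 and 20 and 29 in the same clones untreated. Its log2 change was 1.80 ± 0.28 (SE, limma adjusted p = 0.00345), and the 4 hIFNb libraries all lay above the 4 untreated ones. The peak at the GRID1-AS2 start scored 187 and 220 in IRF1-guide clones and 171 and 204 in control clones with hIFNb, against 308 and 246 and 341 and 356 untreated. Its log2 change was -0.67 ± 0.14 (limma adjusted p = 0.0142), again without overlap. Over the 150 peaks with a listed start, 6 rose and 7 fell with hIFNb over all clones, where 6.55% and 2.58% of all peaks tested did so. Such a start lay in 1.92% of the remote peaks that rose and 2.93% of those that fell, against 3.14% of all remote peaks. These shares were not tested against each other.

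Remote peaks covered 22.2 Mb. Their median width was 3524 bp, close to the 3085 bp of distal peaks and the 3670 bp of TSS-holding peaks, and ranged from 3 to 19968 bp. The value in the table is a normalised count of reads per peak and library, called the score here. The median of a remote peak's mean score over the 8 libraries was 37.4 (quartiles 18.6 and 77.0), against 35.4 in distal and 65.1 in TSS-holding peaks. Per kb of peak the medians were 11.6, 12.5 and 17.2. Remote peaks held 8.72% of the total score.

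The nearest named TSS lay at a median of 82.1 kb and at most 830.1 kb. By RefSeq gene bodies, 2655 remote peaks (55.6%) had their centre inside a protein-coding gene, 467 (9.77%) only inside another kind of gene and 1656 (34.7%) in no gene. The shares of distal peaks were 53.6%, 13.3% and 33.0%. Remote peaks made up 24.5% of the peaks on chromosome 13, 24.1% on chromosome 18 and 22.4% on chromosome 4, against 1.23% on chromosome 19. They fell into 2255 intervals between neighbouring TSSs, of which 1170 held 1 remote peak and 198 held 5 or more. The fullest, on chromosome 21 between the TSSs of RUNX1, a transcription factor of blood and epithelia, and LOC100506403, held 17 peaks over 531.5 kb. None of those 17 was called with hIFNb. The median gap from a remote peak to the nearest other one was 20842 bp.

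The strongest member by mean score lay in the body of VRK2, a kinase gene, at chr2:58104205-58122591, with 620 and 597 in IRF1-guide clones with hIFNb, 628 and 516 untreated, 578 and 776 in control clones with hIFNb and 526 and 753 untreated. These libraries overlapped, and its log2 change with hIFNb was 0.09 ± 0.15 (limma adjusted p = 0.732). The others among the 4 strongest lay in DST, which encodes a cytoskeletal linker, in AKAP13, which encodes a kinase-anchoring protein, and between BNIP3P1 and LOC107984684. The last of these, chr14:28484062-28502949, scored 375 and 414 in IRF1-guide clones and 373 and 496 in control clones with hIFNb, against 609 and 583 and 587 and 605 untreated. Its log2 change was -0.53 ± 0.12 (limma adjusted p = 0.0230), a call made in 2 of the 8 fits that each leave out 1 library.

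The library totals of all scores ran from 3277561 to 3460390. The scaling is not stated, so the read depth behind a score is unknown. Of the epithelial markers, 5 of 8 had at least 1 peak with their TSS inside or within 5 kb. KRT8, CDH1, MUC1 and the endothelial marker PECAM1 had 2 such peaks each, whose scores were summed per library. In every library the score was at least 786 at KRT8, 551 at CDH1, 603 at CLDN4, 180 at MUC1 and 81 at EPCAM. No such peak was listed under KRT18, KRT19 or SOX9. Of the blood markers reported here CD68 had one (135 to 307), and PTPRC and CD3E had none. Of the fibroblast markers 1 of 4 had one (COL1A1, 25 to 81) and of the endothelial markers 1 of 2 (PECAM1, 247 to 425).

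With hIFNb, 313 remote peaks rose and 239 fell over all clones. As shares these are 6.55% and 5.0%, against 6.55% and 2.58% of all peaks tested, and the 552 calls stand beside 9.13% of all peaks called in either direction. The share that rose equalled that of the table, while the share that fell was above it, above the 2.58% of distal and the 0.561% of TSS-holding peaks, and below the 7.17% of peaks of 20 kb or more. The clone pairs the libraries. Blocking on it gave 685 peaks that rose and 1209 that fell (14.3% and 25.3%, against 16.6% and 15.9% of all peaks). Of peaks of 20 kb or more, 40.2% fell in that fit. All 552 calls without the block were also called with it. Requiring an absolute log2 change of at least 1 as well left 313 remote peaks and 4.96% of all peaks. The split depended on the scaling: after median centring 286 rose and 402 fell, and after quantile normalisation 279 rose and 321 fell. Leaving out 1 library at a time gave 255 to 389 calls. The count moved by over 1.5 times without IRF1-guide clone 11 with hIFNb (286) or untreated (323), control clone 1 with hIFNb (255) or untreated (263), and control clone 4 with hIFNb (351) or untreated (320).

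Over all members, called or not, the median change with hIFNb was lower in remote peaks than in distal or TSS-holding peaks of the same clone. The median log2 change with hIFNb was -0.223 and -0.155 in IRF1-guide clones 11 and 13 and -0.209 and -0.098 in control clones 1 and 4. In distal peaks the same clones gave -0.037, -0.058, -0.064 and 0.0, in TSS-holding peaks 0.166, 0.114, 0.079 and 0.126, and in peaks of 20 kb or more -0.108, -0.068, -0.117 and -0.091. The difference of remote minus distal medians averaged -0.132 ± 0.043 (SD, 4 clones) and was negative in 4 of 4 clones, with an exact two-sided sign-flip p of 0.125, the smallest that 4 clones allow. Remote minus TSS-holding averaged -0.293 ± 0.070, likewise in 4 of 4 clones (exact p = 0.125). Within each of 4 bins of mean score, an alternative chosen after seeing the data, remote minus distal ran from -0.146 to -0.070 and stayed negative in 4 of 4 clones.

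**Figure D1:**
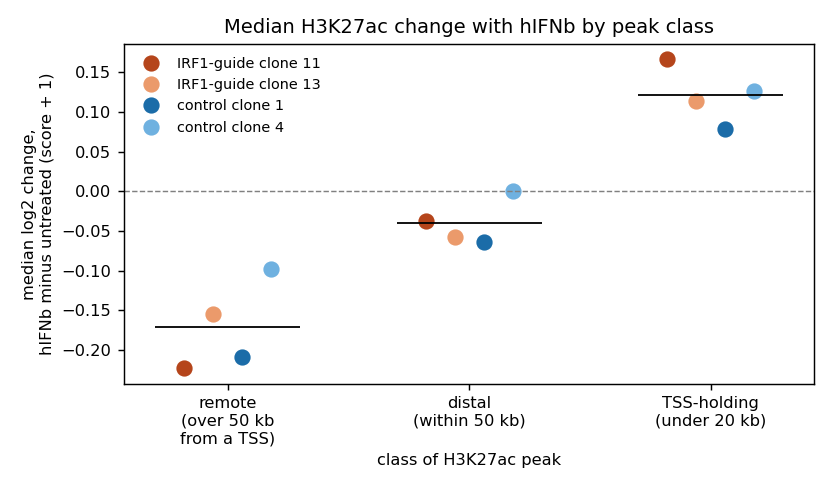
Median log2 change (score + 1) with hIFNb for each clone (points) and the mean of the 4 clones (lines), by class of peak on the x axis. The remote medians lie between -0.223 and -0.098, below the distal medians of the same clones, and the TSS-holding medians lie between 0.079 and 0.166.

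The share of a library's total score held by remote peaks was also lower with hIFNb. It was 7.819% and 8.532% in IRF1-guide clones 11 and 13 and 8.235% and 8.955% in control clones 1 and 4 with hIFNb, against 8.814%, 9.309%, 8.838% and 9.259% in the same clones untreated. The means were 8.39 ± 0.48% with hIFNb and 9.05 ± 0.27% untreated (SD, n = 4 each). The share was lower with hIFNb in 4 of 4 clones, but the libraries overlapped, since control clone 4 with hIFNb lay above 2 untreated libraries, and the exact permutation p over libraries was 0.0857. Paired by clone, the exact sign-flip p was 0.125, the smallest that 4 clones allow. For peaks over 100 kb from a TSS the shares were 2.85 ± 0.20% with hIFNb and 3.19 ± 0.085% untreated (SD, n = 4 each, exact permutation p = 0.0286, the smallest that 4 against 4 allows). Paired by clone, that difference did not pass and cannot with 4 clones (exact sign-flip p = 0.125). The TSS-holding class moved the other way, with 26.59% to 28.07% in the 4 hIFNb libraries and 24.79% to 25.20% in the 4 untreated ones (exact permutation p = 0.0286, and 0.125 paired by clone). The share of peaks of 20 kb or more was also lower with hIFNb, at 33.7 ± 0.53% with hIFNb and 34.8 ± 0.49% untreated (SD, n = 4 each, exact permutation p = 0.0286, and 0.125 paired by clone). For distal peaks it was 30.6 ± 0.58% with hIFNb and 31.1 ± 0.38% untreated (exact permutation p = 0.200). The difference was -1.069 percentage points for peaks of 20 kb or more and -0.669 for remote peaks, so a lower share was not particular to remote peaks. Shares of 1 total are tied to each other, so a gain in one class lowers the rest.

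The share of peaks that fell was higher in the bins farther from a TSS. Among peaks without a TSS and under 20 kb wide, 2.12% fell with hIFNb at 0 to 10 kb, 2.98% at 40 to 50 kb, 3.69% at 50 to 60 kb, 6.06% at 100 to 150 kb, 7.88% at 150 to 250 kb and 8.33% at 250 to 500 kb. The share that rose stayed between 5.93% and 7.74% over the same bins. Median log2 changes were 0.011 at 0 to 10 kb, -0.122 at 40 to 50 kb and -0.146 at 50 to 60 kb, just outside and just inside the 50 kb limit, and -0.358 at 250 to 500 kb. The share that fell was not higher at every step, with 4.44% at 60 to 75 kb and 3.67% at 75 to 100 kb. Median mean scores were 31.8 to 39.9 in all these bins. The bin over 500 kb held 12 peaks, of which 2 rose and 2 fell.

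Within remote peaks the farther members had the lower median in each clone. Peaks over 150 kb from a TSS (726) had medians of -0.371 and -0.193 in IRF1-guide clones 11 and 13 and -0.361 and -0.204 in control clones 1 and 4. Peaks at 50 to 75 kb (2017) had medians of -0.170 and -0.107 in the same IRF1-guide clones and -0.158 and -0.054 in the control clones. The difference averaged -0.160 ± 0.055 (SD, 4 clones), negative in 4 of 4 clones (exact sign-flip p = 0.125). The comparison and its alternatives were chosen after seeing the data. It was -0.122 ± 0.070 for peaks in protein-coding gene bodies, -0.179 ± 0.069 for peaks in no gene, -0.203 ± 0.057 for peaks of mean score of at least 100 and -0.147 ± 0.059 for peaks with no RefSeq start within 50 kb, each negative in 4 of 4 clones.

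**Figure D2:**
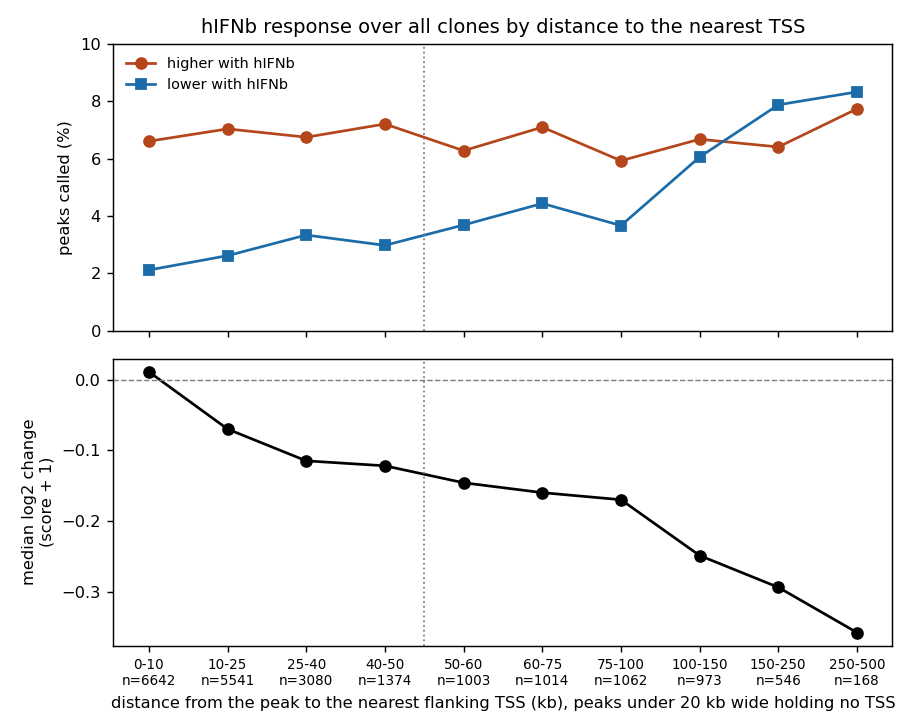
Share of peaks called higher or lower with hIFNb over all clones (top, limma adjusted p under 0.05) and median log2 change (bottom), by distance to the nearest TSS in kb. The dotted line is the 50 kb limit, the share that fell runs from 2.12% to 8.33% and the share that rose stays between 5.93% and 7.74%.

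Rises and falls began from different levels. The 313 peaks that rose had a median score of 58.0 with hIFNb and 18.0 untreated, and 92 of them (29.4%) were under 10 untreated. The 239 that fell had a median of 51.2 with hIFNb and 94.2 untreated, none was under 10 untreated, and 113 were at 100 or more. Median widths were 4366 bp for peaks that rose and 6235 bp for those that fell. A low score has little room to fall, so the calls select on level.

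The largest rise lay in a gene-poor stretch of chromosome 4, at chr4:63933824-63942834, 467 kb from the TSS of TECRL, which encodes an enzyme-like protein of the endoplasmic reticulum known from heart muscle. It scored 110 and 125 in IRF1-guide clones and 135 and 145 in control clones with hIFNb, against 2 and 7 and 10 and 9 untreated. The log2 change was 4.17 ± 0.30 (limma adjusted p = 6.70e-05). The peak was picked among called peaks whose treated and untreated libraries did not overlap, so the lack of overlap was fixed by the choice. Its log2 change was 4.59 ± 0.42 in IRF1-guide clones and 3.75 ± 0.42 in control clones, and the difference of 0.85 ± 0.60 did not pass (limma adjusted p = 1.000).

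The interval between NARS2, the mitochondrial asparaginyl-tRNA synthetase gene, and MIR708 had 4 of its 5 remote peaks rise, with a median log2 change of 2.024. The largest, chr11:78642997-78650290, lay 68.1 kb from the NARS2 TSS and scored 144 and 152 in IRF1-guide clones and 116 and 109 in control clones with hIFNb, against 9 and 10 and 5 and 11 untreated (3.78 ± 0.25, limma adjusted p = 4.77e-05). In TTLL11, which encodes a tubulin polyglutamylase, 4 of 5 remote peaks between the TSSs of LOC107987125 and TTLL11 rose, with a median of 1.679. The largest of these, chr9:121983893-121991175, scored 90 and 54 in IRF1-guide clones and 56 and 77 in control clones with hIFNb, against 10 and 9 and 2 and 9 untreated (3.18 ± 0.37, limma adjusted p = 6.76e-04). The 4 risen peaks at TTLL11 followed each other on the chromosome, while at NARS2 a peak that was not called lay between them.

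The peak chr2:26488203-26497536 lay in the body of OTOF, the otoferlin gene, 61.2 kb from its TSS. It scored 98 and 63 in IRF1-guide clones and 152 and 123 in control clones with hIFNb, against 6 and 9 and 12 and 10 untreated (3.39 ± 0.24, limma adjusted p = 6.50e-05). A peak 94.1 kb from ICE1, a gene for a subunit of the little elongation complex, at chr5:5516781-5528358, scored 135 and 146 in IRF1-guide clones and 397 and 228 in control clones with hIFNb, against 18 and 26 and 24 and 22 untreated (3.15 ± 0.21, limma adjusted p = 5.69e-05). The peak in TENM3, which encodes a teneurin of neuronal contacts, had 5 and 37 in IRF1-guide clones and 51 and 50 in control clones with hIFNb, against 0 and 3 and 4 and 3 untreated (3.22 ± 0.60, limma adjusted p = 0.00912). IRF1-guide clones 11 and 13 lay far apart there with hIFNb. The 12 rises taken by the naming rule were called in all 8 fits that leave out 1 library.

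Falls were smaller than rises. The peak in the body of DDX60L, an interferon-inducible helicase-like gene, at chr4:168420723-168424373, lay 56.1 kb from the DDX60L TSS. It scored 45 and 31 in IRF1-guide clones and 34 and 20 in control clones with hIFNb, against 71 and 94 and 105 and 73 untreated (-1.41 ± 0.24, limma adjusted p = 0.00577). The peak in DMD, the dystrophin gene, at chrX:31831552-31833639, lay 750.1 kb from a TSS and was among the 3 farthest. It scored 7 and 10 in IRF1-guide clones and 6 and 10 in control clones with hIFNb, against 24 and 30 and 29 and 22 untreated (-1.58 ± 0.29, limma adjusted p = 0.00825).

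The peak chrX:21165323-21167965, 206 kb from LOC105373146 and 898 kb from RPS6KA3, a growth-signal kinase gene, scored 10 and 11 in IRF1-guide clones and 17 and 17 in control clones with hIFNb, against 39 and 31 and 38 and 31 untreated (-1.31 ± 0.23, limma adjusted p = 0.00664). All 3 of these falls kept their call without any 1 library, which did not hold for every fall taken by the naming rule. The fall in CLIC5 and the one between LINC02720 and MIR4300 were called in 2 of those 8 fits. The falls between LINC01365 and LINC02502, in TEX11 and in MIPOL1 were called in 4, 6 and 7. Apart from the GRID1 peak below, the other falls taken by the rule kept their call. The largest fall, in GRID1, had scores of 0 to 4 with hIFNb and 6 to 13 untreated (-2.08 ± 0.45, limma adjusted p = 0.0180) and was called in 5 of the 8 fits that leave out 1 library. Of the 14 remote peaks between BMPR1B, a BMP receptor gene, and UNC5C, a netrin receptor gene, 4 fell and none rose, and of 7 between FLJ42393 and LPP-AS1, 4 fell and none rose.

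**Figure D3:**
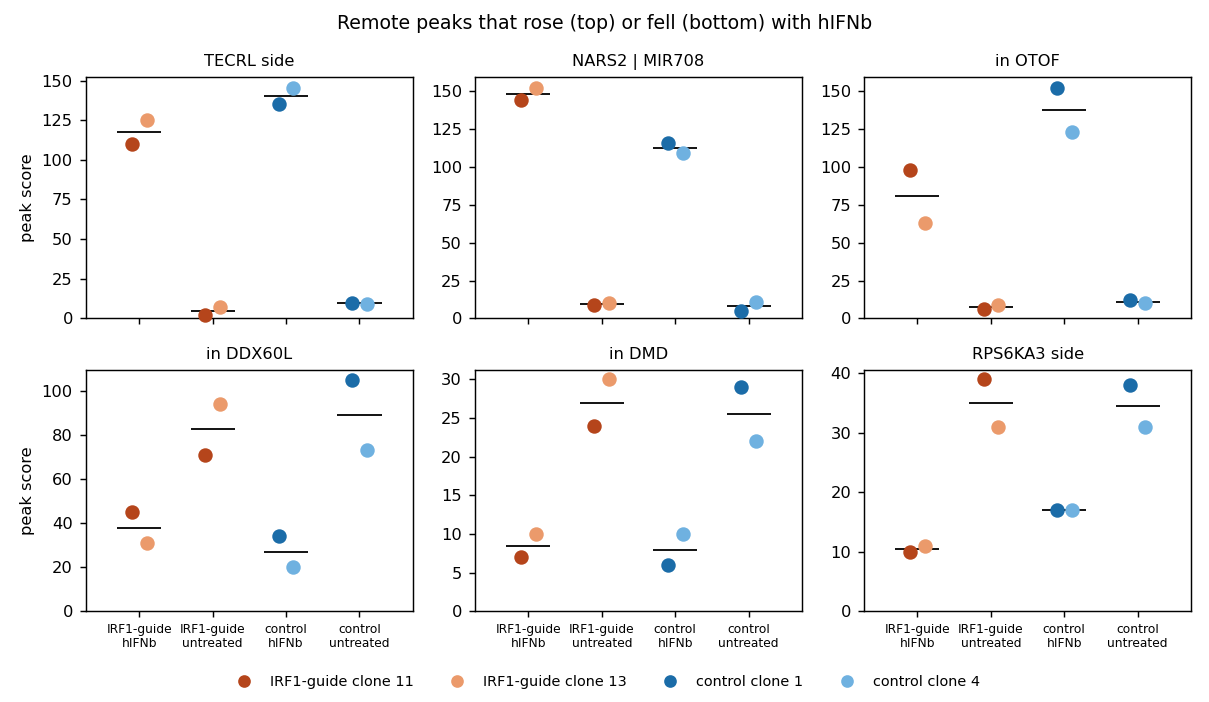
Scores of 6 remote peaks in the 8 libraries (points, coloured by clone; lines are means of 2 clones), with hIFNb to the left of untreated for IRF1-guide and control clones. In the top row scores with hIFNb are 63 to 152 and untreated scores 2 to 12. In the bottom row every hIFNb library lies below every untreated one. Peaks were named only if treated and untreated libraries did not overlap.

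The farthest member from any TSS, chr4:59818252-59819617, lay 830.1 kb from LINC02619 and scored 13 and 18 in IRF1-guide clones and 39 and 63 in control clones with hIFNb, against 17 and 18 and 15 and 43 untreated (0.37 ± 0.33, limma adjusted p = 0.514). Its neighbour chr4:59770750-59776230, 783 kb out, scored 17 and 26 in IRF1-guide clones and 90 and 138 in control clones with hIFNb, against 6 and 4 and 20 and 8 untreated (2.47 ± 0.33, limma adjusted p = 0.00151). Over all 8 libraries, treated and untreated ones overlapped at both peaks. Within each clone the second was higher with hIFNb.

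Of the 75 intervals with 2 or more called remote peaks, 30 had rises only, 31 had falls only and 14 had both.

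Few genes of the listed pathways flanked a remote peak. Of 94 interferon-stimulated genes, 6 flanked 8 remote peaks, of which none rose and 1 fell, the DDX60L peak, with a median log2 change of -0.469, against -0.201 over all remote peaks. None of the 30 antigen presentation genes and none of the 19 markers of other cell types flanked a remote peak. Of the interferon signalling genes, 2 of 36 flanked 6 peaks and 1 rose. That peak lay in PIAS1, a SUMO ligase gene, and scored 32 and 42 in IRF1-guide clones and 75 and 99 in control clones with hIFNb, against 17 and 9 and 29 and 38 untreated (1.42 ± 0.25, limma adjusted p = 0.00707).

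Of the NF-kB and inflammation genes, 2 of 43 flanked 6 peaks and 3 rose, with a median of 0.842. All 3 lay between PDC and PTGS2, the gene of the prostaglandin-forming enzyme COX-2. The one with the largest change, 73.6 kb from PTGS2, scored 21 and 16 in IRF1-guide clones and 13 and 29 in control clones with hIFNb, against 6 and 4 and 5 and 9 untreated (1.56 ± 0.36, limma adjusted p = 0.0240), and was called in 4 of the 8 fits that leave out 1 library. Of the ductal and endodermal transcription factors, 6 of 30 flanked 6 peaks and 1 rose, 65.3 kb from HHEX, a homeobox factor of the foregut. It scored 89 and 115 in IRF1-guide clones and 111 and 158 in control clones with hIFNb, against 38 and 58 and 35 and 66 untreated (1.27 ± 0.25, limma adjusted p = 0.0111).

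Of the basal and mesenchymal genes, 12 of 44 flanked 40 peaks, of which 1 rose and 2 fell. The falls were in TP63, the basal-cell factor gene (-1.26 ± 0.32, limma adjusted p = 0.0352), and on the CDH2 side, the N-cadherin gene (-0.63 ± 0.17, limma adjusted p = 0.0444), and the rise in GLI2, a Hedgehog effector (0.47 ± 0.12, limma adjusted p = 0.0434). Each of these 3 was called in 1 or 2 of the 8 fits that leave out 1 library. No peak beside the classical epithelial genes (1 peak), the AP-1 and growth factor genes (6 peaks) or the metabolic genes (23 peaks) was called with hIFNb without the block, and with it 1 rose and 1 fell beside the AP-1 and growth factor genes and 4 fell beside the metabolic genes. In the blocked fit the other lists had 1 rise and 5 falls beside the interferon-stimulated genes, 1 and 2 beside the interferon signalling genes, 4 and 0 beside the NF-kB genes, 2 and 2 beside the ductal factors and 6 and 9 beside the basal genes. These counts stand beside 14.3% of remote peaks that rose and 25.3% that fell in that fit, and no list was tested against those shares.

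For 2403 remote peaks the table held a peak at the TSS of a flanking gene, 2966 pairs in all. Across these pairs the log2 changes with hIFNb correlated at r = 0.207 (rho = 0.210), given as a description, since pairs share libraries and a gene can enter more than once. Where the remote peak rose, the TSS peak rose in 23 of 187 pairs (12.3%), against 120 of all 2966 pairs (4.05%). Where the remote peak fell, the TSS peak fell in 2 of 128 pairs, against 90 of all 2966 pairs, and rose in 3. In most pairs with a risen remote peak the flanking TSS peak was not called. Among the matched pairs, a remote peak 87.2 kb from FCHSD2, a membrane-bending protein gene, changed by 1.99 ± 0.49 and the FCHSD2 TSS peak by 1.75 ± 0.16 (limma adjusted p of 0.0317 and 2.12e-04). At MAP2, a microtubule protein gene, the remote peaks at 67.4 and 101 kb changed by 1.50 ± 0.17 and 1.22 ± 0.22 and the TSS peak by 1.20 ± 0.24.

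In IRF1-guide clones alone, 51 remote peaks rose and 2 fell with hIFNb (1.20% and 0.0250% of all peaks tested did so), and in control clones alone 216 rose and 67 fell (4.07% and 0.676% of all peaks). With the clone as a block the counts were 267 and 525 in IRF1-guide clones (7.44% and 6.64% of all peaks) and 605 and 819 in control clones (13.4% and 11.3% of all peaks). Both groups called 43 peaks, which was 81.1% of the IRF1-guide calls and 15.2% of the control calls. The overlap over all peaks was not counted, so these shares cannot be called particular to remote peaks. Both sets of calls also share 1 estimate of the spread. The 313 peaks that rose over all clones had a median log2 change of 1.09 in IRF1-guide clones and 1.64 in control clones, and the 239 that fell had -0.73 in IRF1-guide clones and -0.96 in control clones. Counts in either kind of clone were lower without any 1 of its own libraries. Such a fit leaves 1 library in a group and fewer residual degrees of freedom, and the cause of the lower counts was not tested. The IRF1-guide count of 53 was 4 and 11 without clone 11 or 13 with hIFNb, 29 and 34 without them untreated, and 32 and 34 without control clone 1 or 4 with hIFNb. The control count of 283 was 30 and 51 without clone 1 or 4 with hIFNb, and 73 and 72 without them untreated. After median centring 187 rose and 101 fell in control clones.

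**Figure D4:**
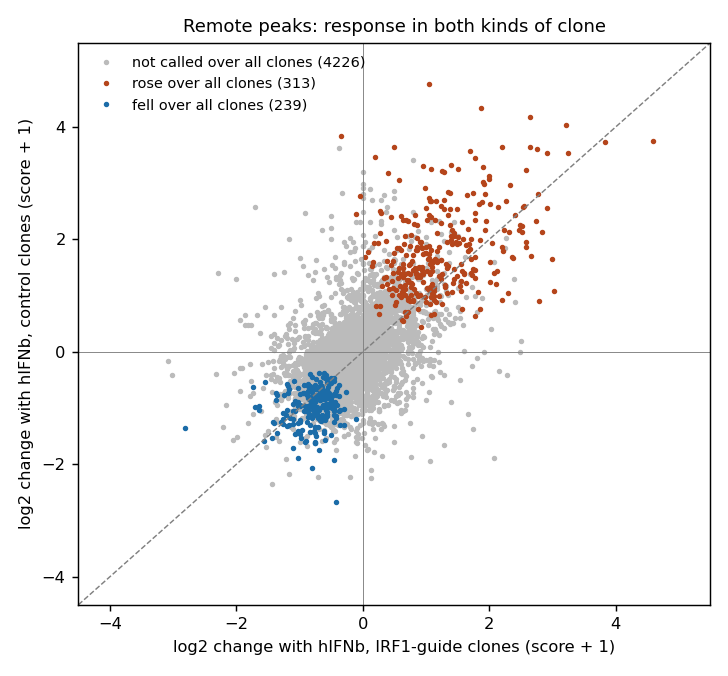
Log2 change with hIFNb (score + 1) of each remote peak in IRF1-guide clones (x axis) and control clones (y axis), coloured by its call over all clones, with the line of equal change dashed. The 313 peaks that rose have medians of 1.09 in IRF1-guide and 1.64 in control clones. Points above and below the dashed line were not counted.

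The test of the difference itself was passed by no remote peak without the block (limma, 0% of all peaks), where 231 had an unadjusted p under 0.05. With the clone as a block, the log2 change in IRF1-guide clones minus that in control clones was above 0 for 2 remote peaks and below 0 for 38 (0.106% and 0.657% of all peaks). The VAV3 peak fell in both kinds of clone in that fit, with log2 changes of -0.50 ± 0.16 in IRF1-guide clones and -1.48 ± 0.16 in control clones (limma adjusted p of 0.0355 and 7.24e-08). The other, between HP1BP3 and LOC105376830 and chosen after its values were seen, had 0.59 ± 0.22 in IRF1-guide clones (limma adjusted p = 0.0796) and -0.74 ± 0.22 in control clones (limma adjusted p = 0.0165). The peak with the smallest p without the block lay in KCNIP1, a potassium channel partner gene, at chr5:170613607-170623024. It scored 33 and 31 in IRF1-guide clones with hIFNb and 32 and 24 untreated, and 202 and 186 in control clones with hIFNb and 12 and 23 untreated. The difference of responses was -3.26 ± 0.47 (limma adjusted p = 0.599, and 6.96e-05 with the block). The control libraries with hIFNb lay above the other 6 libraries, which ran from 12 to 33.

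A peak 169.6 kb from SPCS3, a signal peptidase gene, at chr4:176489612-176498953, had the same form, with 24 and 39 in IRF1-guide clones with hIFNb and 32 and 34 untreated, and 150 and 166 in control clones with hIFNb and 26 and 30 untreated. The difference was -2.56 ± 0.41 (limma adjusted p = 0.599, and 1.97e-04 with the block). In MED13L, a Mediator kinase-module gene, the peak chr12:116059347-116062056 scored 5 and 4 in IRF1-guide clones with hIFNb and 5 and 7 untreated, and 40 and 29 in control clones with hIFNb and 1 and 2 untreated (-4.18 ± 0.71, limma adjusted p = 0.599, and 0.00945 with the block).

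Between IRF1-guide and control clones without hIFNb, no remote peak passed (limma, 0% of all peaks), and 750 had an unadjusted p under 0.05. The 2 smallest adjusted p of 0.0532 belonged to a peak in PPFIA2, a synaptic liprin gene (1 and 1 in untreated IRF1-guide clones, 16 and 17 in untreated control clones), and to one 187 kb from LRRIQ3 (5 and 3 in untreated IRF1-guide clones, 26 and 23 in untreated control clones). With hIFNb, 14 remote peaks were higher in IRF1-guide clones and 180 lower (0.238% and 2.19% of all peaks), which is 0.293% and 3.77% of remote peaks. The median difference of the 180 was -2.11 with hIFNb and -1.01 untreated on the log2 scale. The calls ended without control clone 1 or control clone 4 with hIFNb (0 each) and numbered 36 and 35 without IRF1-guide clone 11 or 13 with hIFNb.

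Taking each clone once, as its mean log2 score over both treatments, 2 remote peaks were higher and 36 lower in IRF1-guide clones (0.0594% and 0.457% of all peaks). Leaving out 1 library leaves its clone with 1 treatment in this comparison, so treatment is mixed in. Here and for the peaks named below, such fits cannot show whether a call over clone means depends on a library. The count of 38 was 0 without either control clone with hIFNb, without control clone 1 untreated or without either IRF1-guide clone untreated, 17 and 20 without IRF1-guide clone 11 or 13 with hIFNb, and 132 without control clone 4 untreated.

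The 2 higher peaks lay in VAV3 and PTPRD. The peak in VAV3, a guanine nucleotide exchange factor gene, chr1:107680721-107692856, holds the window printed above under that name. It scored 137 and 252 in IRF1-guide clones with hIFNb and 217 and 318 untreated, and 33 and 38 in control clones with hIFNb and 99 and 102 untreated. The difference with hIFNb was 2.36 ± 0.30 (limma adjusted p = 0.00800) and over clone means 1.87 ± 0.27 (limma adjusted p = 0.0366). IRF1-guide and control libraries did not overlap in either treatment, which was a condition of naming the peak. Every clone was lower with hIFNb. The calls were made in 6 and 3 of the 8 fits that leave out 1 library. The peak in PTPRD, a receptor phosphatase gene, chr9:8364395-8365946, scored 17 and 21 in IRF1-guide clones with hIFNb and 23 and 20 untreated. It was listed at 0 and 0 in control clones with hIFNb and at 1 and 1 untreated (limma adjusted p over clone means = 0.0366).

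Of the lower peaks, the one in PTPRT, another receptor phosphatase gene, chr20:42553326-42555404, scored 0 and 1 in IRF1-guide clones with hIFNb and 0 and 0 untreated, and 42 and 34 in control clones with hIFNb and 18 and 7 untreated. The difference with hIFNb was -4.78 ± 0.65 (limma adjusted p = 0.00924). The peak 135 kb from GRIA1, a glutamate receptor gene, at chr5:153349090-153355588, scored 2 and 1 in IRF1-guide clones with hIFNb and 1 and 0 untreated, and 141 and 64 in control clones with hIFNb and 26 and 2 untreated (-5.29 ± 0.91, limma adjusted p = 0.0176). The control clones lay far apart there, and the untreated score was mostly in clone 1. Over clone means the GRIA1 peak did not pass (-3.98 ± 0.69, limma adjusted p = 0.0520), so it was called with hIFNb but not by that measure. A peak 92.8 kb from CYP26B1, a retinoic-acid-degrading enzyme gene, in the body of EXOC6B, scored 1 and 2 in IRF1-guide clones with hIFNb and 1 and 1 untreated, and 32 and 22 in control clones with hIFNb and 17 and 17 untreated. Its difference over clone means was -3.33 ± 0.42 (limma adjusted p = 0.0366). In the 8 fits that leave out 1 library, the calls with hIFNb were made 6 times for the PTPRT peak and 4 times for the GRIA1 peak, and those over clone means 3 times each for the PTPRD and EXOC6B peaks.

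**Figure D5:**
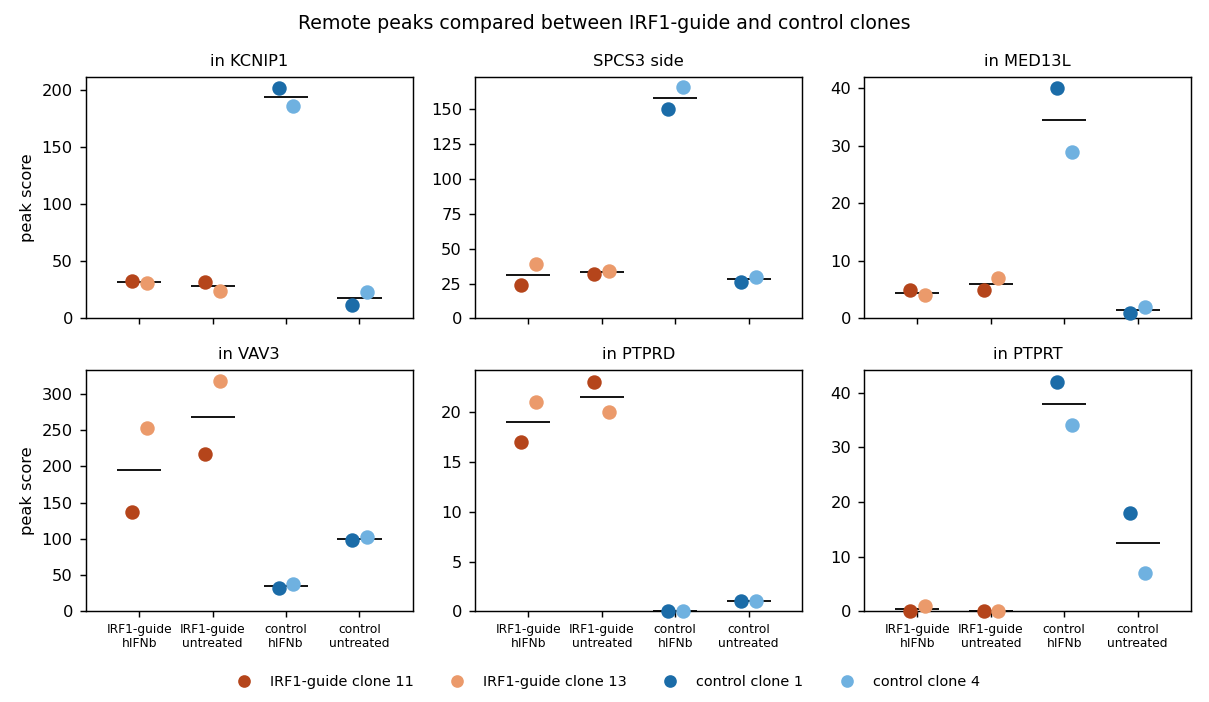
Scores of 6 remote peaks in the 8 libraries (points, coloured by clone; lines are means of 2 clones). In the KCNIP1, SPCS3 and MED13L panels the control clones with hIFNb stand apart from the other 3 groups. In the VAV3, PTPRD and PTPRT panels scores of IRF1-guide and control clones do not overlap in either treatment. Untreated, none of these differences passed (limma adjusted p of 0.131, 0.0589 and 0.0837).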

How the data were processed

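The aligner was Bowtie2 and the build GRCh38, per the submitters' processing notes. For the aligner's version, the peak caller, the counter and the scaling, the sources used here give nothing. The deposited score of a peak is a normalised count that the authors rounded to whole numbers. Widths and TSS distances are those of the deposited table, which names 1 TSS inside a peak and 1 on each side. In the control untreated libraries every whole number up to 100 occurs as a score, while 10 to 30 of them are unused in the other 6 libraries.

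Log2(score + 1) of all 31961 peaks was fitted in limma 3.58.1 (R 4.3.3), with 1 group-means model for 8 libraries and a trended prior variance. P-values were adjusted over all peaks by Benjamini-Hochberg, with calls at adjusted p under 0.05. Errors beside log2 changes are SE. No peak was lost to the requirement of a score above 0 in 2 libraries. Same-numbered libraries come from the same clone, and their deviations from the group means correlated at 0.4214 (IRF1-guide) and 0.4852 (control) over remote peaks, so the clone was used as a block in an alternative fit. Library shares and clone medians were tested with exact permutations. Of 4236 flanking TSS names, 92.2% matched a RefSeq symbol, 35.1% of names being protein-coding. Sequences are RefSeq's, GRCh38.p14. The central bases of the remote peaks were not analysed here.

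Named peaks were the largest called changes without overlap between groups, up to 12 per direction for hIFNb over all clones and 6 elsewhere, 1 per TSS pair, or the 3 of smallest p where none was called, with the 4 strongest, 3 farthest and 3 widest peaks and up to 3 per gene list. Other peaks named (flanking TSS pairs, intervals, start windows) were chosen after their values were seen. So were the peaks with the largest response differences called with the block. The members and lists were chosen with earlier results of these data known. 1 blood marker is not reported here.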

Additional observations from a re-analysis of the deposited data

Results flagged for a closer look

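In the fit with the clone as a block, 9 named remote peaks passed the test of a difference in hIFNb response between kinds of clone. All but the VAV3 peak were listed as the largest differences already called in that fit, some by other rules too. Their passing was therefore fixed by the choice. The 9 belong to 40 remote peaks called there, 2 above 0 and 38 below (0.106% and 0.657% of all peaks). On the log2 scale, as IRF1-guide minus control, the KCNIP1 peak had -3.26 ± 0.37 (limma adjusted p = 6.96e-05) and the SPCS3 peak -2.56 ± 0.34 (limma adjusted p = 1.97e-04). The MED13L peak, between LINC02463 and MIR620, had -4.18 ± 0.80 (limma adjusted p = 0.00945), and the EML1 peak -3.71 ± 0.72 (limma adjusted p = 0.0104). The DPH6-DT peak had -4.28 ± 0.86 (limma adjusted p = 0.0127) and the PCDH10 peak -2.79 ± 0.66 (limma adjusted p = 0.0386). The MEIS2 peak had -3.99 ± 0.96 (limma adjusted p = 0.0428) and the DLGAP4 peak -2.57 ± 0.63 (limma adjusted p = 0.0481). The VAV3 peak, between NDUFA4P1 and MIR7852, went the other way with 0.98 ± 0.23 (limma adjusted p = 0.0314), being a smaller fall in IRF1-guide clones. None of the 9 passed without the block. Some of the differences rest on scores near 0, where the 1 added before the log2 weighs most. In IRF1-guide clones with hIFNb and untreated, the DPH6-DT peak scored 0 and 1 and 2 and 6, and the MEIS2 peak 0 and 2 and 0 and 4. The EML1 peak scored 2 and 0 in untreated control clones. IRF1-guide clones 11 and 13 lay apart there, with 10 and 27 with hIFNb and 3 and 17 untreated.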

How the results depend on the processing

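The clone numbers pair the libraries. With the replicate block the calls were 1894 for hIFNb over all clones (552 without the block), 1424 in control clones (283), 792 in IRF1-guide clones (53) and 40 for the difference of responses (0). The 1699 members over 100 kb from a TSS held 233, 111 and 21 hIFNb calls over all, control and IRF1-guide clones. They held 87 calls between kinds of clone with hIFNb and 16 over clone means. These were counted in the unchanged fit of all peaks, beside 552, 283, 53, 194 and 38 calls among all 4778 members. Of all peaks tested, 9.13% were called with hIFNb over all clones. In control clones 4.07% of all peaks rose and 0.676% fell, and in IRF1-guide clones 1.20% and 0.0250%. Between kinds of clone with hIFNb 0.238% were higher and 2.19% lower in IRF1-guide clones, and over clone means 0.0594% and 0.457%. The share of total score held by the 1699 differed by -0.346 percentage points (exact permutation p = 0.0286, and 0.125 paired by clone). An absolute log2 change of at least 1 left 313 calls over all clones. A mean score of at least 20 left 111 calls between kinds of clone with hIFNb and 0 over clone means, where median centring gave 59, a pseudocount of 5 gave 129 and limma without the trend gave 1. Untreated, limma without the trend called 4. The cause was not tested. Leaving out 1 library gave 255 to 389 calls over all clones, 30 to 283 in control clones, 4 to 41 in IRF1-guide clones, 0 to 217 between kinds of clone with hIFNb and 0 to 132 over clone means. Over clone means such a fit leaves 1 clone with 1 treatment, so treatment is mixed into that count. The share difference ran from -0.859 (exact permutation p = 0.0286, and 0.250 paired by clone, without control clone 4 with hIFNb) to -0.480 (exact permutation p = 0.171). No share or median difference changed sign, but the balance of calls did: over all clones 313 rose and 239 fell, against 286 and 402 after median centring, 279 and 321 after quantile normalisation and 685 and 1209 with the replicate block, and over clone means 2 were higher and 36 lower, against 1 and 0 without the trend. Scores have no stated scaling and no depth, so precision rests on 2 clones per group.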
